A study of Mus musculus with 3 samples.

Results

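Barx1, Isl1, Foxf1, Foxf2, Tbx18, Tbx3, Tcf21, Gata6 and Meis1 encode transcription factors that pattern the mesenchyme of the stomach and gut. They were taken from a list of symbols and looked up through the platform's gene names, and all 9 had a value, out of 19938 named genes in the table. Their levels were compared between 3 cultured lines of FSP1-positive mouse forestomach fibroblasts with 1 array per line, where FSP1 is the fibroblast marker encoded by S100a4 and the forestomach is the squamous-lined part of the rodent stomach. The lines were TGFBR2/SMAD4 cKO, with conditional knockout of the type II TGF-beta receptor gene and of the gene for the SMAD that TGF-beta and BMP signals share, TGFBR2cKO, with conditional knockout of the receptor gene alone, and wt. The TGFBR2/SMAD4 cKO and wt lines came from normal forestomach, while the TGFBR2cKO line was derived from squamous cell carcinoma at that site, so genotype and tissue of origin cannot be told apart in any comparison with the TGFBR2cKO line. The mice were a C57BL6 and BALBc mix, male or female and of unstated age, and the cells were grown without further treatment in medium with 10% serum to subconfluency at passages 4 to 6. The driver of the conditional deletions, and whether a line came from 1 clone or pooled animals, is not stated by the labels. Because each line has a single array, none of the differences below could be tested against replicate spread, and their precision is limited by the number of arrays.

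During gut development, hedgehog ligands from the epithelium act on the surrounding mesenchyme, where they maintain the forkhead genes Foxf1 and Foxf2, and the mesenchyme signals back through BMP and Wnt ligands and their inhibitors. Barx1 marks the mesenchyme of the embryonic mouse stomach and is required there for the overlying epithelium to take a stomach identity. Tbx18, Tcf21 and Gata6 are known from mesothelium, the mesenchyme under it and the mural cells derived from it, while Meis1 binds DNA together with PBX and HOX proteins. Fibroblasts of adult organs often keep part of the positional transcription factor set of the embryonic mesenchyme they came from.

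Values are log2 signals, in which a difference of 1 is 2-fold. The 3 arrays had closely matched medians, which differed by at most 0.00413. A gene entered the counts over all genes if its highest value reached 6.63, the median over the whole table. Of 19938 genes 11808 met this filter, and 8 of the 9 transcription factor genes did so, each of them in all 3 arrays. Exactly equal values were common in the table, since 32.7% of the genes at the filter had the same value in all 3 arrays. The cause of these ties is unknown, so an equal value is given below as the table has it and does not show that a gene was unchanged. Neither targeted gene was clearly lower in the lines labelled as its knockouts: Tgfbr2 had 10.29 in the TGFBR2/SMAD4 cKO array, 10.25 in the TGFBR2cKO array and 10.25 in the wt array, and Smad4 had 11.04, 11.06 and 11.06 in that order. Each value covers probes from exons along the gene, per the labels' protocols, the deleted exons could not be read apart, and whether this, the deletion or the labels account for the levels was not tested, so every direction below rests on lines as labelled. Xist was at 9.44 in the TGFBR2/SMAD4 cKO array, against 5.35 in the TGFBR2cKO array and 5.33 in the wt array, and the Y-linked gene Eif2s3y was at 5.01, 10.00 and 10.12 in that order, so sex pattern also separates the TGFBR2/SMAD4 cKO array from both others. All 9 listed fibroblast markers, among them Col1a1, Dcn, Pdgfra and S100a4, reached the filter in at least 1 array, and 0 of 7 squamous epithelial and 0 of 5 endothelial markers reached it in any array.

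Foxf2 and Tbx18 were about 3-fold lower in the TGFBR2/SMAD4 cKO array than in either other array, Gata6 was higher there and lowest in the TGFBR2cKO array, and the stomach factor Barx1, with Foxf1, Tbx3, Tcf21 and Meis1, differed by less than 1.5-fold in every pair of arrays. In TGFBR2/SMAD4 cKO minus wt, 2 of the 9 genes were at least 2-fold different, both of them lower, where 3.40% of all genes at the filter were at least 2-fold different, 2.18% lower and 1.22% higher. In TGFBR2cKO minus wt 0 of the 9 were, where 0.0339% of all genes were, 0.0254% higher and 0.00847% lower. In TGFBR2/SMAD4 cKO minus TGFBR2cKO 3 of the 9 were, 2 lower and 1 higher, where 3.57% of all genes passed that size, 2.25% lower and 1.32% higher. Over all 9 genes the median difference was 0 in the first comparison, 0.02 in the second and 0 in the third, and the median over all genes at the filter was 0 in each. The 9 include Isl1, which was under the filter and had equal values in the 3 arrays. Over the 8 genes at the filter the medians were -0.09, 0.03 and -0.11, and 2, 0 and 3 of these 8 were at least 2-fold different. The first 2 comparisons share the wt array, so their values for a gene are not independent.

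**Figure D1:**
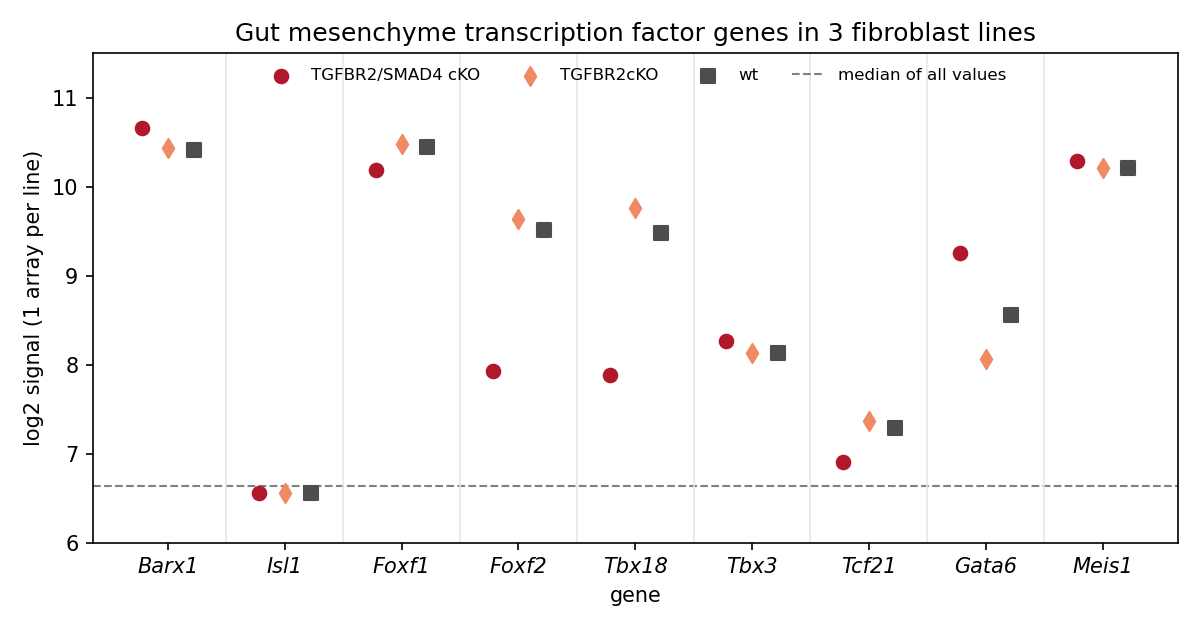
Log2 signal of each of the 9 genes (x axis) in the TGFBR2/SMAD4 cKO, TGFBR2cKO and wt arrays, 1 point per array, with the median of all values as a dashed line at 6.63. Foxf2 and Tbx18 lie at 7.93 and 7.89 in the TGFBR2/SMAD4 cKO array, well under their points in the other arrays, and the 3 points of Isl1 coincide under the dashed line at 6.55; heights of different genes are read by different probes and are not comparable.

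Tbx18 encodes a T-box repressor known from the embryonic epicardium, the mesenchyme of the ureter, and mural cells. Its log2 signal was 7.89 in the TGFBR2/SMAD4 cKO array, 9.76 in the TGFBR2cKO array and 9.47 in the wt array. The TGFBR2/SMAD4 cKO array was thus the low one, and the 2 others lay close together. The difference was -1.59 for TGFBR2/SMAD4 cKO minus wt, a 3.00-fold lower signal, and 96 of 11808 genes were as low or lower in that comparison. Against the TGFBR2cKO array it was -1.88, a 3.67-fold lower signal, with 50 genes as low or lower. TGFBR2cKO minus wt was 0.29, and 2.24% of genes at the filter differed by that much or more in either direction.

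Foxf2 encodes a forkhead factor of the gut mesenchyme that shares much of its role with Foxf1. It had a log2 signal of 7.93 in the TGFBR2/SMAD4 cKO array, 9.63 in the TGFBR2cKO array and 9.51 in the wt array. Again the TGFBR2/SMAD4 cKO array was low and the other arrays were close to each other. The difference of TGFBR2/SMAD4 cKO minus wt was -1.58, a 2.99-fold lower signal, with 99 genes as low or lower, and that of TGFBR2/SMAD4 cKO minus TGFBR2cKO was -1.71, a 3.26-fold lower signal. TGFBR2cKO minus wt was 0.13, and 9.72% of genes differed by at least that much.

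Promoter sequence is shown for Tbx18 and Foxf2, whose signals were lower in the same array, and for Barx1, the stomach factor that differed little. Each is the stretch of 250 bases before the RefSeq gene start, read 5′ to 3′ on the gene's strand. Capitals mark matches, on either strand, to 6 short motifs: CAGAC (core SMAD element), GGCGCC (GC-rich SMAD element), TGTTTAC (forkhead), GGTGTGA (T-box), TGACAG (MEIS) and TGGGTGGTC (GLI, the effector of hedgehog signals).
Tbx18, GRCm38.p6 chr9:87731261-87731510, minus strand: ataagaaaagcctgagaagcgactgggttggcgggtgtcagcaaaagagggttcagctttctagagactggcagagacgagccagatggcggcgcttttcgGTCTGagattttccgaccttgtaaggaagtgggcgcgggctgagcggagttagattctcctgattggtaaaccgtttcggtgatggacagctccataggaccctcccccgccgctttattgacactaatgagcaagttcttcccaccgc
Foxf2, GRCm38.p6 chr13:31625566-31625815, plus strand: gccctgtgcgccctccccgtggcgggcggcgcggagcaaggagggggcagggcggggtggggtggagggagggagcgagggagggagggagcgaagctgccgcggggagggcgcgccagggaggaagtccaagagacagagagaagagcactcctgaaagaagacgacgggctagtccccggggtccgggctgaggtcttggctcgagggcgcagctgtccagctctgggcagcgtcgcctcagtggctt
Barx1, GRCm38.p6 chr13:48662786-48663035, plus strand: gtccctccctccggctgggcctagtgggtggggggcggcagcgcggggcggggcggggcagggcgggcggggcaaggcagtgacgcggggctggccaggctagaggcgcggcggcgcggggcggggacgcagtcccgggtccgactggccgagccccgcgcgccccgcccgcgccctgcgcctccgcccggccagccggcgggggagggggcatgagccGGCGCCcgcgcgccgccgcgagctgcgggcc
The Tbx18 stretch held 1 match, to CAGAC on the opposite strand, a motif present in 42.2% of 32851 promoter stretches of the same length in the table. None of the 6 motifs was present in the Foxf2 stretch, and the Barx1 stretch held 1 match to GGCGCC, found in 9.59% of all stretches. The remaining motifs were found in 3.17% (TGTTTAC), 3.33% (GGTGTGA), 15.9% (TGACAG) and 0.225% (TGGGTGGTC) of all stretches. In base composition the 3 differed, with 54.0% G and C in Tbx18, 71.6% in Foxf2 and 85.6% in Barx1, against a median of 52.4% over all stretches. A stretch was also read for Isl1, Tcf21 and Meis1, which makes 6 of the 9 genes. Tcf21 held 3 matches to CAGAC, Isl1 held 1 to CAGAC and 2 to GGCGCC, and Meis1 held none. No stretch was read for Foxf1, Tbx3 and Gata6. Stretches on 1 chromosome, that of Gata6, were left out, so the count of 6 does not show that Gata6 lacks a stretch.

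Foxf1, the other FOXF gene, was read by 2 probe sets. Their average was 10.18 in the TGFBR2/SMAD4 cKO array, 10.48 in the TGFBR2cKO array and 10.44 in the wt array. The TGFBR2/SMAD4 cKO array was lowest, as for Foxf2, but by a much smaller margin, with a difference of -0.26 to wt and -0.30 to TGFBR2cKO. The probe sets gave -0.40 and -0.12 for TGFBR2/SMAD4 cKO minus wt, so they agree in sign and not in size. TGFBR2cKO minus wt was 0.04 for the average. Thus the FOXF pair parted in the TGFBR2/SMAD4 cKO array on this scale, with Foxf2 at -1.58 and Foxf1 at -0.26 against wt, a contrast for which no test could be made.

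Barx1 had log2 signals of 10.66 in the TGFBR2/SMAD4 cKO array, 10.43 in the TGFBR2cKO array and 10.41 in the wt array. All 3 lines therefore carried Barx1 signal well above the filter, with the TGFBR2/SMAD4 cKO array slightly the highest. The difference of TGFBR2/SMAD4 cKO minus wt was 0.25, a 1.19-fold higher signal, and 23.3% of genes at the filter differed by as much or more. TGFBR2cKO minus wt was 0.02. Isl1 encodes a LIM homeodomain factor that in the mouse embryo marks the mesenchyme of the pyloric end of the stomach. It was at 6.55 in the TGFBR2/SMAD4 cKO array, 6.55 in the TGFBR2cKO array and 6.55 in the wt array, equal in every deposited digit and under the filter, so it entered no count.

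Tbx3 encodes a T-box repressor that acts in the limb, mammary gland and heart and restrains senescence in mouse fibroblasts. Its log2 signal was 8.27 in the TGFBR2/SMAD4 cKO array and exactly equal in the 2 others, at 8.13 in the TGFBR2cKO array and 8.13 in the wt array. The difference of 0.14 for TGFBR2/SMAD4 cKO minus wt was matched or passed by 36.2% of genes. The 2 T-box genes thus differed in opposite directions in this comparison, -1.59 for Tbx18 and 0.14 for Tbx3.

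Tcf21 encodes a basic helix-loop-helix factor of mesenchyme that marks cells on the way to fibroblasts in the mouse epicardium. It had log2 signals of 6.91 in the TGFBR2/SMAD4 cKO array, 7.36 in the TGFBR2cKO array and 7.29 in the wt array. The array order was that of Tbx18 and Foxf2, with smaller steps: -0.37 for TGFBR2/SMAD4 cKO minus wt, -0.45 for TGFBR2/SMAD4 cKO minus TGFBR2cKO and 0.08 for TGFBR2cKO minus wt. In TGFBR2/SMAD4 cKO minus wt, 1072 genes were as low or lower. In all, 4 of the 9 genes (Tbx18, Foxf2, Tcf21 and Foxf1) were lowest in the TGFBR2/SMAD4 cKO array and 4 (Gata6, Barx1, Tbx3 and Meis1) were highest there. Among all genes at the filter 30.6% were lowest and 28.3% highest in that array.

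Gata6 encodes a zinc finger factor that acts in endoderm, in smooth muscle and in cells of the mesothelial lineage. Its log2 signal was 9.25 in the TGFBR2/SMAD4 cKO array, 8.07 in the TGFBR2cKO array and 8.56 in the wt array. It was the gene of the 9 in which the TGFBR2cKO and wt arrays lay farthest apart, at -0.49 for TGFBR2cKO minus wt, and 77 of 11808 genes, or 0.652%, differed that much or more in that comparison. TGFBR2/SMAD4 cKO minus wt was 0.69, a 1.61-fold higher signal. TGFBR2/SMAD4 cKO minus TGFBR2cKO was 1.18, a 2.27-fold higher signal, and 115 genes were as high or higher. Meis1 had 10.29 in the TGFBR2/SMAD4 cKO array, 10.20 in the TGFBR2cKO array and 10.21 in the wt array. It differed by 0.08 between the TGFBR2/SMAD4 cKO and wt arrays, the smallest difference in that pair among the 8 genes at the filter.

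**Figure D2:**
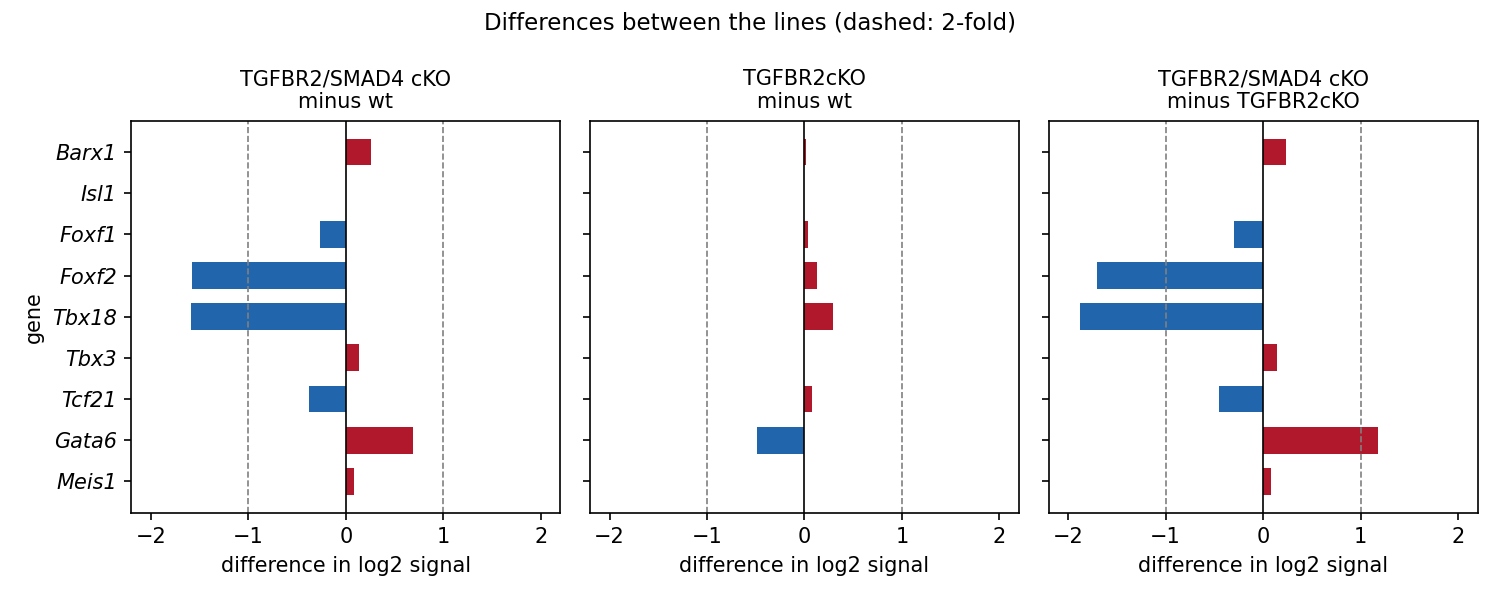
Difference in log2 signal of each gene (bars from 0) in the 3 comparisons, red for higher and blue for lower in the line named first, with dashed lines at 2-fold. Foxf2 and Tbx18 pass 2-fold in both comparisons of the TGFBR2/SMAD4 cKO line, Gata6 passes it only against TGFBR2cKO, at 1.18, and no bar passes it for TGFBR2cKO minus wt.

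Over all genes the comparisons differed in spread. The differences of the 11808 genes had an SD of 0.39 for TGFBR2/SMAD4 cKO minus wt and 0.0951 for TGFBR2cKO minus wt. Between the TGFBR2/SMAD4 cKO and wt arrays 58.0% of genes lay within 0.1 of 0, and 2 of the 9 transcription factor genes did, Meis1 and Isl1. For TGFBR2cKO minus wt 87.1% of genes lay within 0.1 of 0 and 6 of the 9 did, the others being Gata6, Tbx18 and Foxf2.

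**Figure D3:**
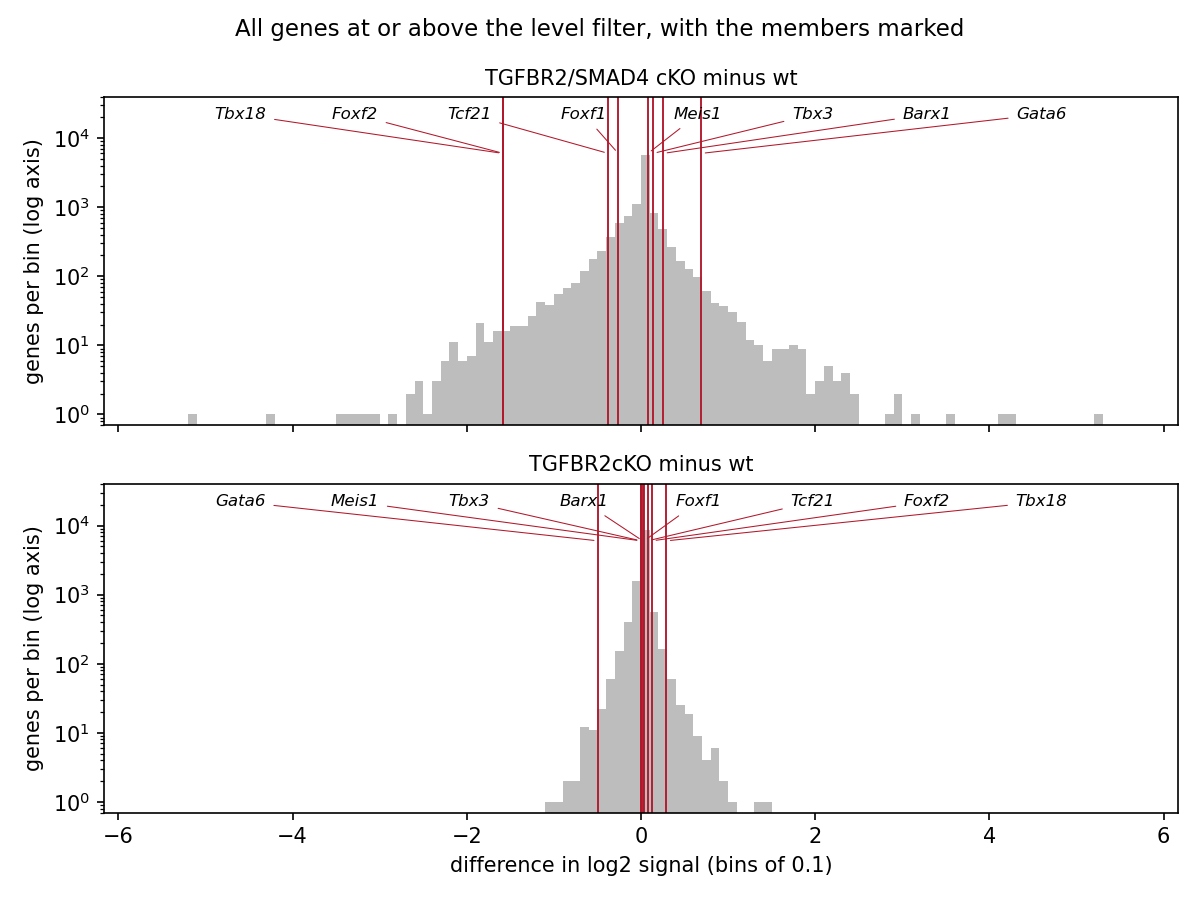
Number of genes (log axis) per bin of 0.1 in the difference in log2 signal, for TGFBR2/SMAD4 cKO minus wt (top) and TGFBR2cKO minus wt (bottom), with red lines at the 8 genes above the filter. Tbx18 and Foxf2 fall together in the lower tail of the top panel at -1.59 and -1.58, and the bottom panel is much narrower, with Gata6 at -0.49.

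The genes around the 9 on their chromosomes were listed to see whether whole neighbourhoods differed. Of the 36 places for the nearest 2 protein-coding genes on each side, 26 held a measured gene at the filter. Of these 26, 1 was at least 2-fold different in TGFBR2/SMAD4 cKO minus wt, Emb near Isl1 at -1.20, where 3.40% of all genes at the filter were. Beside Foxf2, the forkhead genes Foxq1 and Foxc1 and the metabolic gene Gmds each had equal values in the 3 arrays. Beside Tbx18, Cep162 differed by -0.36 and Snx14 by -0.09, while Nt5e and Mrap2 were below the filter. Foxc2, which lies near Foxf1, was also equal in the 3 arrays. In TGFBR2/SMAD4 cKO minus TGFBR2cKO, 2 neighbours were at least 2-fold different, Emb at -1.28 and Eya4, the gene next to Tcf21, at 1.20, where 3.57% of all genes were. Counts this small cannot show whether neighbourhoods differed more or less than other genes.

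Likeness of pattern was measured as the Euclidean distance between the 3 array values after each gene's mean was subtracted, over 10544 other genes with 1 probe set and an established symbol. With 3 arrays, many genes can lie close to any pattern, so these are descriptions. Nearest to Tbx18 were Krt20 (keratin 20) at a distance of 0.0241, Trpv2 (a cation channel) at 0.102 and Peg10 (an imprinted gene) at 0.105. Nearest to Foxf2 were the adaptor gene Sh3kbp1 at 0.0182, the calponin gene Cnn1 at 0.0325 and the laminin gene Lama2 at 0.0428. Foxf2 was the 8th nearest to Tbx18, and Tbx18 the 12th nearest to Foxf2, at a distance of 0.137. Gata6 lay nearest to Eya4 at 0.0238, Sim2 at 0.0387, both transcriptional regulators of development, and the cyclin D1 gene Ccnd1 at 0.0878. Eya4 had 8.35 in the TGFBR2/SMAD4 cKO array, 7.15 in the TGFBR2cKO array and 7.68 in the wt array.

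Counts of relatives of the 9 genes are read beside the share of all genes at the filter at least 2-fold different in TGFBR2/SMAD4 cKO minus wt, 3.40%. In TGFBR2/SMAD4 cKO minus TGFBR2cKO that share was 3.57%. Many relatives had exactly equal values, which does not show that they were unchanged. Of 30 other regulators of stomach and gut mesenchyme 29 were measured and 26 reached the filter, among them Osr1, Nr2f2, Prrx1 and Twist1. In TGFBR2/SMAD4 cKO minus wt 0 of the 26 were at least 2-fold different and 12 were equal, with a list median of 0. Sox11 came nearest, at 7.39 in the TGFBR2/SMAD4 cKO array and 8.33 in the wt array, a difference of -0.94. Twist2, a basic helix-loop-helix repressor of mesenchyme, was the 1 gene of the list past 2-fold in TGFBR2/SMAD4 cKO minus TGFBR2cKO, at 1.15, with signals of 9.62 in the TGFBR2/SMAD4 cKO array, 8.47 in the TGFBR2cKO array and 9.08 in the wt array. Other forkhead genes at the filter numbered 24, of which 12 were equal in the TGFBR2/SMAD4 cKO and wt arrays. At least 2-fold lower in the TGFBR2/SMAD4 cKO than in the wt array were 2. They were Foxp2, at 8.52 in TGFBR2/SMAD4 cKO and 9.87 in wt, and Foxm1, a driver of mitotic gene expression, at 7.22 in TGFBR2/SMAD4 cKO and 8.41 in wt. Of 5 other T-box genes at the filter, Tbx15, a close relative of Tbx18, was at 7.68 in the TGFBR2/SMAD4 cKO array, 6.07 in the TGFBR2cKO array and 6.72 in the wt array. It was 0.97 above wt and 1.61 above TGFBR2cKO, where its signal was under the filter. Tbx2, the closest relative of Tbx3, was equal in all 3. Of 6 other GATA family genes and cofactors at the filter, Gata2 was at 7.43 in TGFBR2/SMAD4 cKO and 8.44 in wt, just past 2-fold, in the opposite direction to Gata6.

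**Figure D4:**
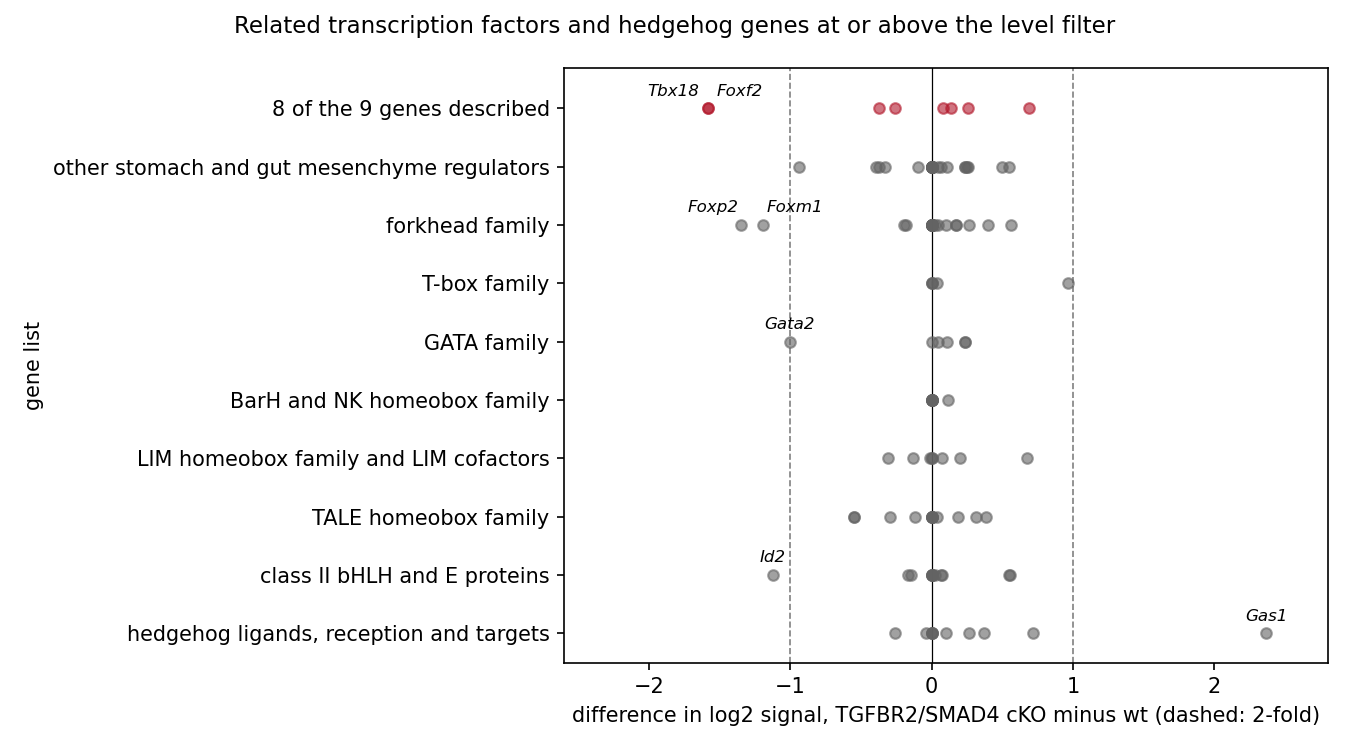
Difference in log2 signal for TGFBR2/SMAD4 cKO minus wt of each gene at or above the filter, 1 point per gene, with 8 of the 9 genes described in the top row and related gene lists below. Most relatives lie near 0, many of them at exactly equal values. The genes past the dashed 2-fold lines are named, with Tbx18 and Foxf2 at -1.59 and -1.58 on the low side and Gas1 at 2.37 on the high side.

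Hedgehog signals lie upstream of Foxf1 and Foxf2 in the gut, so the genes of that pathway were read beside them. Of 14 listed genes 13 were measured and 11 reached the filter. In TGFBR2/SMAD4 cKO minus wt 1 was at least 2-fold different, where 3.40% of all genes at the filter were. This was Gas1, which encodes a membrane protein that binds hedgehog ligands, at 11.84 in the TGFBR2/SMAD4 cKO array, 9.44 in the TGFBR2cKO array and 9.48 in the wt array. The pathway's readout genes Gli1 and Ptch1 were listed at the same value in the 3 arrays, 7.02 and 7.82, as many genes here were, and Hhip, another readout, was below the filter. Gli2 was 0.72 higher in TGFBR2/SMAD4 cKO than in wt, at 8.07 and 7.35. The list median was 0.

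Genes reported to depend on the 9 factors in the mouse were listed too, and 7 of the 10 measured reached the filter. Bmp4 and Wnt5a, both tied to Foxf1 and Foxf2 in the embryonic gut, differed in opposite directions: Bmp4 was at 11.63 in TGFBR2/SMAD4 cKO and 8.66 in wt, a difference of 2.97, and Wnt5a at 9.75 in TGFBR2/SMAD4 cKO and 10.68 in wt, a difference of -0.93. The Wnt antagonist genes Sfrp1 and Sfrp2 are tied to Barx1 in the embryonic stomach. Sfrp1 was at 8.22 in TGFBR2/SMAD4 cKO, 8.80 in TGFBR2cKO and 8.40 in wt, and Sfrp2 was below the filter in all 3 arrays. Cdkn2a, a cell cycle inhibitor locus that Tbx3 represses in mouse fibroblasts, was at 11.33 in TGFBR2/SMAD4 cKO, 9.54 in TGFBR2cKO and 9.77 in wt, and thus higher by 1.56 than wt where Tbx3 was also higher by 0.14. In TGFBR2/SMAD4 cKO minus wt 2 of the 7 genes were past 2-fold, both higher (Bmp4 and Cdkn2a). Over all genes at the filter 3.40% were past 2-fold in that comparison, 1.22% higher, and the list median was -0.18.

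Markers of several cell types differed between the same arrays as Tbx18 and Foxf2, and not all in one direction. In a culture, fewer cells of a type and less RNA per cell cannot be told apart. All 10 smooth muscle markers reached the filter in the TGFBR2cKO and wt arrays, and 9 did in the TGFBR2/SMAD4 cKO array. In TGFBR2/SMAD4 cKO 5 were at least 2-fold lower than in wt, Kcnmb1 at -4.21, Myh11 at -3.37, Actg2 at -2.85, Des at -2.06 and Cnn1 at -1.62. Over all genes at the filter 2.18% were at least 2-fold lower in that comparison. Kcnmb1 was under the filter in TGFBR2/SMAD4 cKO, at 6.04, and Des just above it, at 6.64, so the sizes of their differences are uncertain. Acta2, Tagln and Lmod1 differed by -0.20, -0.36 and -0.32, and Mylk was higher by 0.79. The summed linear signal of that list was 44109 in TGFBR2/SMAD4 cKO, 80007 in TGFBR2cKO and 77116 in wt.

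Of 10 mesothelial markers 7 reached the filter in wt, 6 in TGFBR2cKO and 4 in TGFBR2/SMAD4 cKO. At least 2-fold lower in TGFBR2/SMAD4 cKO than in wt were 3, Upk1b at -3.48, Krt19 at -1.89 and Upk3b at -1.14. Over all genes at the filter 2.18% were at least 2-fold lower and 1.22% higher in that comparison. Upk1b was under the filter in TGFBR2/SMAD4 cKO, at 6.21, so the size of its difference is uncertain. In TGFBR2/SMAD4 cKO minus wt, where Gata6 was higher by 0.69, all 7 of these markers were lower, with a median of -0.61. In TGFBR2cKO minus wt, where Gata6 was at -0.49, 6 of these 7 were lower and 1 higher, with a median of -0.41. Upk3b was past 2-fold there at -1.07, where 0.00847% of all genes at the filter were at least 2-fold lower. The mesothelial markers summed to 1055 in TGFBR2/SMAD4 cKO, 1971 in TGFBR2cKO and 2573 in wt, and Muc16, Gpm6a and Lrrn4 were below the filter throughout. The mesothelial factor gene Wt1 was at 7.82 in TGFBR2/SMAD4 cKO, 7.82 in TGFBR2cKO and 8.23 in wt. Of 6 pericyte markers 4 reached the filter, and in TGFBR2/SMAD4 cKO minus wt 1 was at least 2-fold higher, Notch3 at 1.18, and 0 were at least 2-fold lower, with sums of 5959 in TGFBR2/SMAD4 cKO, 5205 in TGFBR2cKO and 4991 in wt and with Rgs5 and Abcc9 below the filter.

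Fibroblast markers differed as well, with 3 of 9 at least 2-fold higher in TGFBR2/SMAD4 cKO than in wt, Pdgfra by 1.40, Lum by 1.21 and Fap by 1.09, while Thy1 stood at -2.36 on the lower side. Over all genes at the filter 1.22% were at least 2-fold higher and 2.18% lower in that comparison. Fap was under the filter in wt, at 6.39. The fibroblast markers summed to 92040 in TGFBR2/SMAD4 cKO, 86323 in TGFBR2cKO and 84384 in wt. Proliferation genes were at least 2-fold lower in 14 of 19 in TGFBR2/SMAD4 cKO minus wt, among them Bub1 at -2.64, Kif11 at -2.31 and Ccna2 at -2.13. All 19 reached the filter in TGFBR2cKO and wt, and 15 did in TGFBR2/SMAD4 cKO, where Bub1 at 6.54 and Kif11 at 6.46 were under it. The proliferation genes summed to 6589 in TGFBR2/SMAD4 cKO, 14859 in TGFBR2cKO and 16726 in wt. Leukocyte markers summed to 516 in TGFBR2/SMAD4 cKO, 1130 in TGFBR2cKO and 744 in wt, with 2 of 6 at the filter, Lyz2 and Cd68, and Ptprc, Adgre1, Cd52 and Tyrobp below it. Most of the difference in these sums came from Lyz2, at 7.75 in TGFBR2/SMAD4 cKO, 9.52 in TGFBR2cKO and 8.70 in wt. Lyz2 was past 2-fold in TGFBR2/SMAD4 cKO minus TGFBR2cKO, at -1.77, where 2.25% of all genes at the filter were at least 2-fold lower. Ptprc, Adgre1 and Tyrobp had equal values in the 3 arrays. The part of these markers, and of sex pattern, in the differences of the 9 genes was not tested.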

How the data were processed

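RNA from 3 fibroblast lines, 1 sample each, was run on the Affymetrix Mouse Gene 1.0 ST array and summarised per transcript, per the labels' protocols. The deposited table held 1 value for each of 35556 probe sets per array. The deposited numbers were taken to be log2 signals from their range of 2.82 to 15.6. How the authors corrected and normalized the signals, with what software and on which build, is not given in the sources used here. Values were used as deposited. Groups came from the sample titles.

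Of the probe sets 21789 had 1 gene symbol, 1621 had several and 12146 were unlisted. Symbols were updated by gene identifier with a RefSeq table of assembly GRCm38.p6 for 21698, and probe sets of a gene were averaged. A difference is the log2 signal in the line named first minus that in the line named second, and the size rule was 2-fold. The rule for naming genes beside the 9 took list genes past 2-fold in any comparison (otherwise the 2 that differed most), the 3 genes nearest in pattern to each of the 9 that passed 2-fold, and checks of the arrays. Of the proliferation genes past 2-fold, 3 are named and the rest counted, and other lists with 2 or fewer genes at the filter are given mainly by counts. Lists for enteric neurons and glia and for interstitial cells of Cajal, each with 1 gene at the filter, are not described. Other list genes and neighbours named for context were chosen after their values were seen. The 9 genes and the 21 other lists were chosen with earlier results of these data known. The counting step was run on simulated data with independent normal noise and without the ties of the deposited values. It checks the counting and not whether a difference between these arrays would recur. Promoter sequence came from RefSeq, GRCm38.p6. Python 3.11.15, numpy 2.4.6, pandas 2.3.3, R 4.3.3 and limma 3.58.1 were used.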

Additional observations from a re-analysis of the deposited data

How the results depend on the processing

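Counts and differences were recomputed with median centring, quantile or cyclic loess normalization, the probe set with the highest mean, an offset of 32 on the linear scale, no filter, a filter at the 75th percentile or on the mean, size rules of 1.5-fold and 3-fold, and single probe sets only. Differences of the 9 genes were recomputed only with the normalizations, the probe set with the highest mean and the offset. All 135 recomputed differences kept their side of 2-fold, and the largest move was 0.143, for Foxf1 with its brighter probe set. Part of this was fixed beforehand, since the choice of probe set alters only Foxf1 and median centring can move a difference by at most 0.00413. The only change of sign was Meis1 in TGFBR2cKO minus wt, at 0.0017 with median centring. At 3-fold, 1 of the 9 genes, Tbx18, was past the rule in TGFBR2/SMAD4 cKO minus wt, with Foxf2 just under it at 2.99-fold. Counts over all genes moved from 401, 4 and 422 for TGFBR2/SMAD4 cKO minus wt, TGFBR2cKO minus wt and TGFBR2/SMAD4 cKO minus TGFBR2cKO to 997, 44 and 1064 at 1.5-fold, to 151, 0 and 161 at 3-fold, and to 251, 2 and 269 with the filter at the 75th percentile, which left 6080 genes. In TGFBR2cKO minus wt the offset gave 2 genes, both higher, cyclic loess 3 higher and 2 lower, and quantile normalization 4 higher and 2 lower, in place of 3 higher and 1 lower. No paired analysis was possible because each line had 1 array. Signal over background was not given, so for Isl1, under the filter, these arrays show no difference and cannot show how small one could be.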

Other observations

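Some further relatives of the 9 genes differed between the lines, and of those named here only Id2 passed 2-fold. Among TALE homeobox genes, the family of Meis1, Tgif1, which encodes a repressor of SMAD-driven transcription, was at 10.15 in TGFBR2/SMAD4 cKO, 10.83 in TGFBR2cKO and 10.70 in wt, and 0 of 14 genes at the filter were at least 2-fold different in any pair of arrays. Irx2 was at 8.78 in TGFBR2/SMAD4 cKO, 8.22 in TGFBR2cKO and 8.47 in wt. Among LIM homeobox genes and cofactors, the family of Isl1, Lhx9 was at 7.57 in TGFBR2/SMAD4 cKO, 6.78 in TGFBR2cKO and 6.90 in wt, the largest difference of 8 genes at the filter, and Isl2 was at 6.86, 7.17 and 7.17 in that order. In the BarH and NK homeobox family of Barx1, 8 genes reached the filter, 7 of them had equal values in TGFBR2/SMAD4 cKO and wt, and Nkx2-6 differed by 0.12. Id2, an inhibitor of basic helix-loop-helix factors and a BMP target, was at 9.79 in TGFBR2/SMAD4 cKO, 10.91 in TGFBR2cKO and 10.92 in wt, the 1 gene of 13 in its list at least 2-fold lower than in wt. Over all genes at the filter 2.18% were at least 2-fold lower in TGFBR2/SMAD4 cKO minus wt.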
